A study of Homo sapiens with 6 samples.

Results

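The Wnt pathway was followed here through 42 genes in HaCaT cells, an immortalized human keratinocyte line. They comprise 10 ligands, 2 genes of ligand secretion, 11 receptors and coreceptors, 3 R-spondin receptors, 2 ligases of receptor turnover, 3 Dishevelled genes, 4 genes of the destruction complex, 4 TCF/LEF transcription factors and 3 inhibitors. Members were matched from a list of gene symbols of these roles, and all 42 were found among the 20014 genes of the deposited table. The series comprises 6 poly(A) RNA-seq libraries, 3 labelled STUB1 knockout and 3 labelled as wild-type control, with no further treatment in either group. Knockout cells carried a lentiviral CRISPR construct with an sgRNA against STUB1 and control cells one with a control sgRNA, and colonies grown in plates after sorting were screened for STUB1 protein by immunoblot. STUB1 (also CHIP) is a ubiquitin ligase that works with the HSP70 and HSP90 chaperones. Whether the 3 libraries of a group represent separate colonies, separate cultures or 1 preparation is not given, so a p-value here reflects no more than how far these libraries vary, and that variation may be technical.

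Wnt proteins are secreted lipid-modified ligands. The acyltransferase PORCN attaches the lipid, WLS carries the ligand to the cell surface, and a Frizzled receptor with LRP5 or LRP6 receives it. Dishevelled then disables a complex of APC, AXIN and GSK3B that otherwise marks beta-catenin for destruction, and stabilized beta-catenin activates target genes with TCF/LEF factors. In skin the pathway is known for hair follicle formation and for the upkeep of epidermal stem cells. A beta-catenin-independent branch acts on cell polarity and movement.

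STUB1 mRNA measured 21.6, 24.7 and 23.2 FPKM (fragments per kilobase of transcript, scaled to the mapped fragments of the library) in the knockout libraries and 37.8, 41.9 and 52.7 in the controls, a fall to 52.5% (log2 fold change -0.89, SE 0.116, limma adjusted p = 0.00125). JMJD8, on the other strand, overlaps 983 of the 2316 exonic bases of STUB1. In each library 11200 to 11292 genes were at or above 1 FPKM. Among 8 keratinocyte markers, KRT5, TP63, ITGB4, SFN, COL17A1, DSG3 and KRT6A were above 10 FPKM in every library, whereas KRT14, a defining basal keratin, lay between 0.162 and 0.328. The summed level of the 8 was 992.5 to 1101 FPKM in knockout cells and 786.4 to 860.2 in control cells, with KRT5, KRT6A and COL17A1 higher, and the part of this in the Wnt results was not tested. Of the other markers, 7 of 8 for fibroblasts, 5 of 7 for melanocytes, 4 of 7 for leukocytes and 4 of 5 for an embryonic kidney line were under 0.1 FPKM throughout. Their summed levels ranged from 0.442 to 0.562 FPKM in the knockout against 0.456 to 0.535 in the control for fibroblasts, 6.48 to 7.66 and 6.77 to 7.41 for melanocytes (mostly PMEL and MITF), and 22.9 to 25.6 and 21.4 to 22.6 for leukocytes (mostly CD68). Control 3 stood apart, with mitochondrial transcripts at 20.9% of all FPKM against 24.7% to 30.8% in the other 5 libraries. Leaving it out raised the number of changed genes from 2579 to 4521. Over 11177 tested genes the log2 fold change rose with the GC content of the longest transcript (Spearman's rho 0.461, a description across genes, which are not independent replicates). Values after a correction for GC content and length are therefore given for many of the genes, though not for all whose values moved.

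Of the 42 members, 31 had a mean of at least 1 FPKM over the 6 libraries and are called expressed. A further 4 (WNT4, FZD10, TCF7 and TCF7L1) lay between 0.1 and 1 FPKM, and 7 (WNT3A, WNT5A, WNT5B, LGR5, LGR6, AXIN2 and NKD1) lay below 0.1. DKK1, FZD6, DVL1, WLS and DVL3 were the most abundant, at means of 72.2, 39.3, 23.2, 21.5 and 17.1 FPKM. The expressed members were tested with limma on log2(FPKM + 1), adjusting p by Benjamini-Hochberg over all 11262 tested genes, and a log2 fold change here is knockout over control on that scale. In the knockout 4 rose (FZD8, WNT7B, WNT10A and DKK3), 5 fell (WNT3, FZD7, FZD3, TCF7L2 and DKK1) and 22 did not pass. That is 29% of the expressed members against 22.9% of all tested genes, with 12.9% against 9.58% higher and 16.1% against 13.3% lower. The median log2 fold change was 0.04 over the expressed members and -0.01 over all tested genes. Groups did not overlap for 14 of the 31 (45.2%), against 45.6% of all tested genes. The members' share without overlap was thus near the background. With each library rescaled to TPM, the calls over all genes went from 1079 higher and 1500 lower to 667 and 1622, and those of the members to 3 higher and 5 lower. After the GC and length correction 5 of the 31 members were higher and 7 lower. Of all 11177 genes in that fit 30.3% passed, 1658 higher and 1725 lower.

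**Figure D1:**
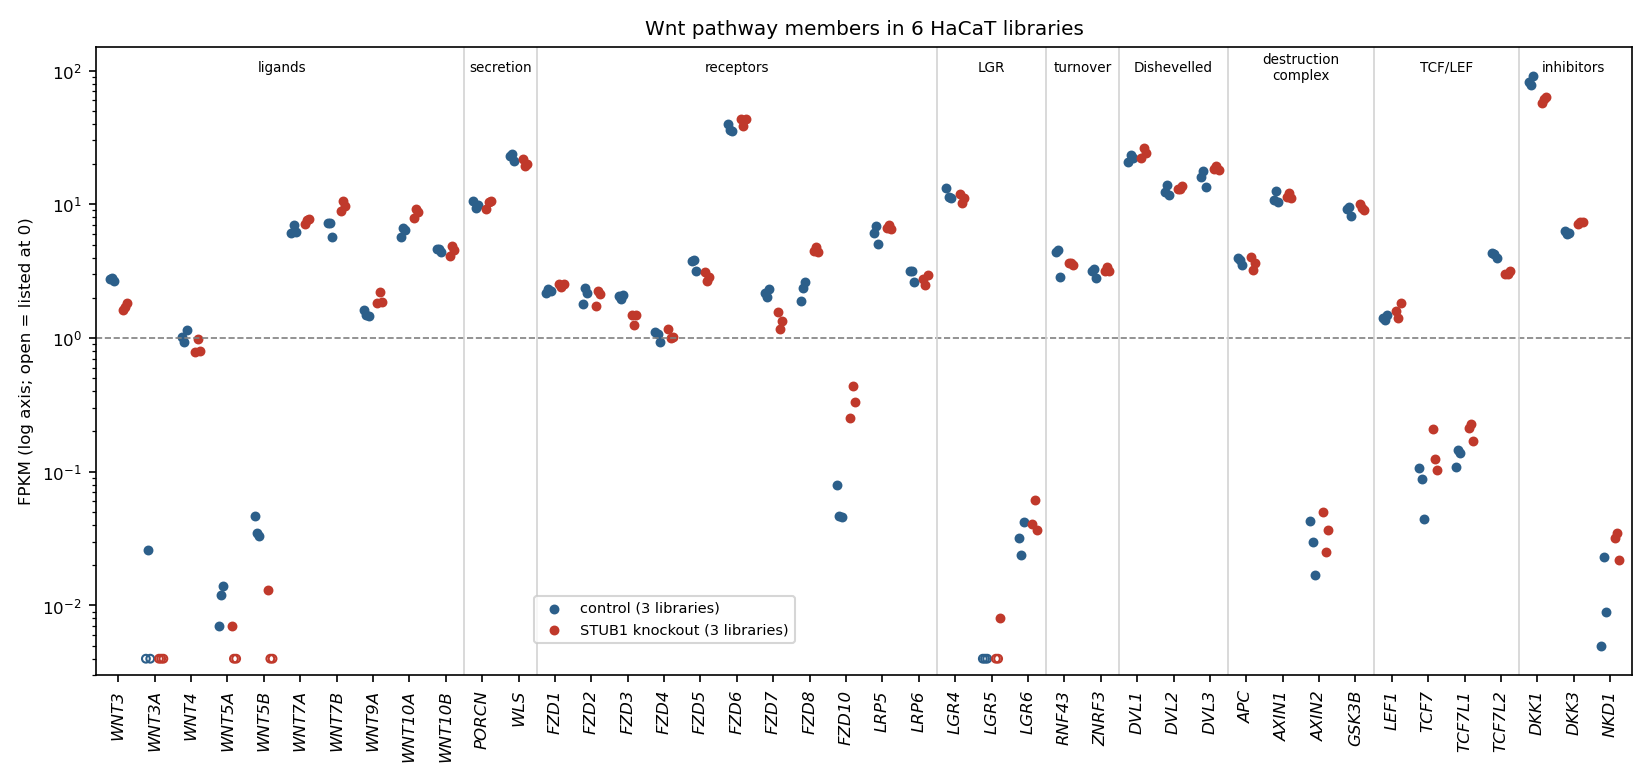
FPKM of the 42 members in each library, on a log axis, grouped by role; each point is 1 library, open points at the bottom are listed at 0, and the dashed line marks 1 FPKM. DKK1 and FZD6 lie highest, 11 members have means below the line (WNT4 with 2 control libraries just above it), and FZD8, WNT3, FZD7 and DKK1 show separated groups.

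The ligands expressed numbered 6, and their levels moved in both directions. In control cells WNT7B, WNT7A and WNT10A, ligands made by keratinocytes, led at 6.72 ± 0.906, 6.43 ± 0.451 and 6.23 ± 0.483 FPKM (SD, n = 3). These 3 levels did not differ beyond their spread. WNT10B followed at 4.58 ± 0.149, WNT3 at 2.75 ± 0.0823 and WNT9A at 1.52 ± 0.0874 FPKM, each apart from the one before it by more than their SDs. Expressed as shares of the summed FPKM of the 10 ligands, WNT7B, WNT7A and WNT10A made up 22.9%, 21.9% and 21.3% in the control and 27.8%, 21.5% and 24.8% in the knockout. The sum itself was 29.3 ± 1.36 FPKM in the control and 34.9 ± 2.36 in the knockout (SD, n = 3).

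WNT7B measured 8.95, 10.5 and 9.65 FPKM in the knockout libraries and 7.26, 7.23 and 5.67 in the control libraries. Every knockout library was above every control library, and WNT7B rose 1.44-fold (log2 fold change 0.48, SE 0.102, limma adjusted p = 0.0115). The call was lost without knockout 2 (adjusted p = 0.0733), and after the GC and length correction the value was 0.29 (adjusted p = 0.0278). Without control 3, the lowest control, the WNT7B value was 0.37 (adjusted p = 0.000924). Its longest transcript has 63.0% GC, and the 149 tested genes within 10 Mb on chromosome 22 had a median of 0.14.

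WNT10A, a ligand of hair, tooth and sweat gland formation, measured 7.95, 9.16 and 8.83 FPKM in knockout cells and 5.69, 6.61 and 6.40 in control cells. Again the groups did not overlap. The gene rose 1.39-fold (log2 fold change 0.42, SE 0.0839, limma adjusted p = 0.00872), missed the threshold without knockout 2 (adjusted p = 0.0518) and stood at 0.27 after the GC and length correction (adjusted p = 0.00717). A stretch upstream of its start is shown because the series title names NF-kB. Members were searched for 2 patterns of the NF-kB binding element after their values were known. The pattern GGAATTTCC or its reverse complement GGAAATTCC occurs in the 250 bases upstream of 0.413% of 35116 gene starts, and among the 29 members with a sequence in the table only in that of WNT10A. Shares here count every start, whereas a member with several starts counts once. The called members WNT7B, FZD3, FZD7 and DKK3 had no sequence in the table and could not be searched. The second pattern, GGGNNTTCC on either strand, does not include the first. It occurs in 5.78% of starts and, among members, in FZD5, LRP5, WNT5A and WNT5B, but not in WNT10A. The sequence is from RefSeq (GRCh38.p14, plus strand, chr2:218880726-218880754), from 126 to 98 bases before the RefSeq start, with the match in capitals. GENCODE 29 begins the gene farther upstream and places these bases in the 5′ UTR of the first exon.
WNT10A: gggggcctcgGGAAATTCCccggacccct
A match of letters is a description and does not show that a factor binds there.

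WNT3, a ligand that signals through beta-catenin, went the other way. It measured 1.62, 1.69 and 1.82 FPKM in the knockout against 2.78, 2.81 and 2.65 in the control, with no overlap. WNT3 fell to 62.3% of control (log2 fold change -0.47, SE 0.0659, limma adjusted p = 0.0017), and its share of the ligand sum was 4.92% against 9.38%. It lies on chromosome 17 at 46762506 to 46833154 (GRCh38, minus strand). There 99 of the 183 tested genes within 10 Mb were lower and 2 higher, with a median log2 fold change of -0.28, and WNT3 was lower than all but 24.6% of them. The part of these neighbours in the result was not tested.

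The other expressed ligands did not pass. WNT7A stood at 7.49 ± 0.302 FPKM in the knockout against 6.43 ± 0.451 in the control (log2 fold change 0.19, limma adjusted p = 0.0968). WNT9A stood at 1.96 ± 0.207 against 1.52 ± 0.0874 (0.23, limma adjusted p = 0.0526), passing only without control 3 (0.0376). The groups did not overlap for either gene, but after the GC and length correction the log2 values were 0.08 and 0.07. WNT10B differed by less than its spread, at 4.51 ± 0.403 against 4.58 ± 0.149 FPKM.

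Low ligands were tested only without the filter on the mean, where 15.3% of 16782 genes passed. WNT4, at 0.784 to 0.987 FPKM in knockout cells and 0.940 to 1.16 in control cells, did not pass (limma adjusted p = 0.197). WNT5B, which signals mainly without beta-catenin, was listed at 0.013, 0 and 0 FPKM in the knockout against at 0.047, 0.035 and 0.033 in the control (limma without the filter, adjusted p = 0.0353). The groups did not overlap, but all values were below 0.1 FPKM, where no counting interval is given. WNT3A was listed above 0 in 1 control library (0.026 FPKM), and WNT5A did not exceed 0.014 FPKM in any.

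The secretion genes did not pass. PORCN measured 10.1 ± 0.726 FPKM in knockout cells and 9.98 ± 0.568 in control cells (log2 fold change 0.01, SE 0.0803, limma adjusted p = 0.938). For WLS the means were 20.4 ± 1.2 and 22.7 ± 1.47 FPKM (-0.15, limma adjusted p = 0.203). Without control 3, where WLS was the lowest of the controls at 21.1 FPKM, its value was -0.20 (adjusted p = 0.0243).

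Among Frizzled receptors FZD6, which signals mainly in cell polarity, made up most of the mRNA. It accounted for 70.3% of the summed FPKM of the 9 Frizzled genes in the control and 72.0% in the knockout. Among the others FZD8 rose, FZD7 and FZD3 fell, and 5 expressed Frizzled genes, FZD6 included, did not pass.

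FZD8, a receptor that pairs with LRP coreceptors in beta-catenin signalling, measured 4.46, 4.82 and 4.40 FPKM in the knockout against 1.90, 2.36 and 2.64 in the control. The lowest knockout library was well above the highest control. With a 1.98-fold rise (log2 fold change 0.76, SE 0.0926, limma adjusted p = 0.000922), FZD8 had the largest change of any expressed member, and it passed under every alternative run, at 0.55 after the GC and length correction. None of the 36 tested genes within 10 Mb on chromosome 10 had a higher value, and their median was -0.05. The share of FZD8 in the Frizzled sum was 4.41% in the control and 7.92% in the knockout.

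FZD7, a receptor of epithelial stem and progenitor cells, measured 1.58, 1.17 and 1.33 FPKM in knockout cells and 2.16, 2.02 and 2.34 in control cells. It fell to 62.6% of control (log2 fold change -0.43, SE 0.0814, limma adjusted p = 0.00677) and passed under every alternative run. None of the 57 tested genes within 10 Mb on chromosome 2 was lower, and their median was -0.12. FZD3, a receptor of the polarity branch, measured 1.48, 1.26 and 1.48 FPKM against 2.07, 1.95 and 2.09, also without overlap. FZD3 fell to 69.3% of control (log2 fold change -0.33, SE 0.0685, limma adjusted p = 0.00946). Its longest transcript has 34.9% GC, and after the GC and length correction the value was -0.20 (adjusted p = 0.0392, or 0.0511 if the replicate number is also fitted as a block).

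FZD6 measured 43.1, 38.6 and 43.3 FPKM in the knockout against 39.6, 36.0 and 35.1 in the control, so that knockout 2 lay below control 1. Its log2 value of 0.17 did not pass (limma adjusted p = 0.147), whereas corrected for GC and length it was 0.34 (adjusted p = 0.00249, or 0.00763 if the block is also fitted). FZD5, at 2.89 ± 0.228 against 3.58 ± 0.349 FPKM, had -0.24 (limma adjusted p = 0.0704) and passed after that correction (-0.33, adjusted p = 0.00335) and without control 3 (-0.30, adjusted p = 0.00459). FZD1, FZD2 and FZD4 lay between 0.941 and 2.54 FPKM in all libraries, with log2 values of 0.10, -0.03 and 0.01. FZD2 is on chromosome 17, where 101 of 200 tested genes within 10 Mb were lower with a median of -0.27, and 83.0% of them had lower values than FZD2. FZD4 shares 1399 of its 7383 exonic bases with PRSS23 on the opposite strand, and with no strand setting given their reads cannot be told apart.

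FZD10 was far below the filter, yet its groups were separate. It measured 0.251, 0.438 and 0.335 FPKM in knockout cells and 0.080, 0.047 and 0.046 in control cells, 5.92-fold by the ratio of means. On the scale of log2(FPKM + 1) the difference was 0.34 (limma without the filter, adjusted p = 0.00743). All control values were below 0.1 FPKM, where no counting interval is given, so the ratio is uncertain. As a share of the Frizzled sum FZD10 made up 0.596% in the knockout and 0.109% in the control.

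**Figure D2:**
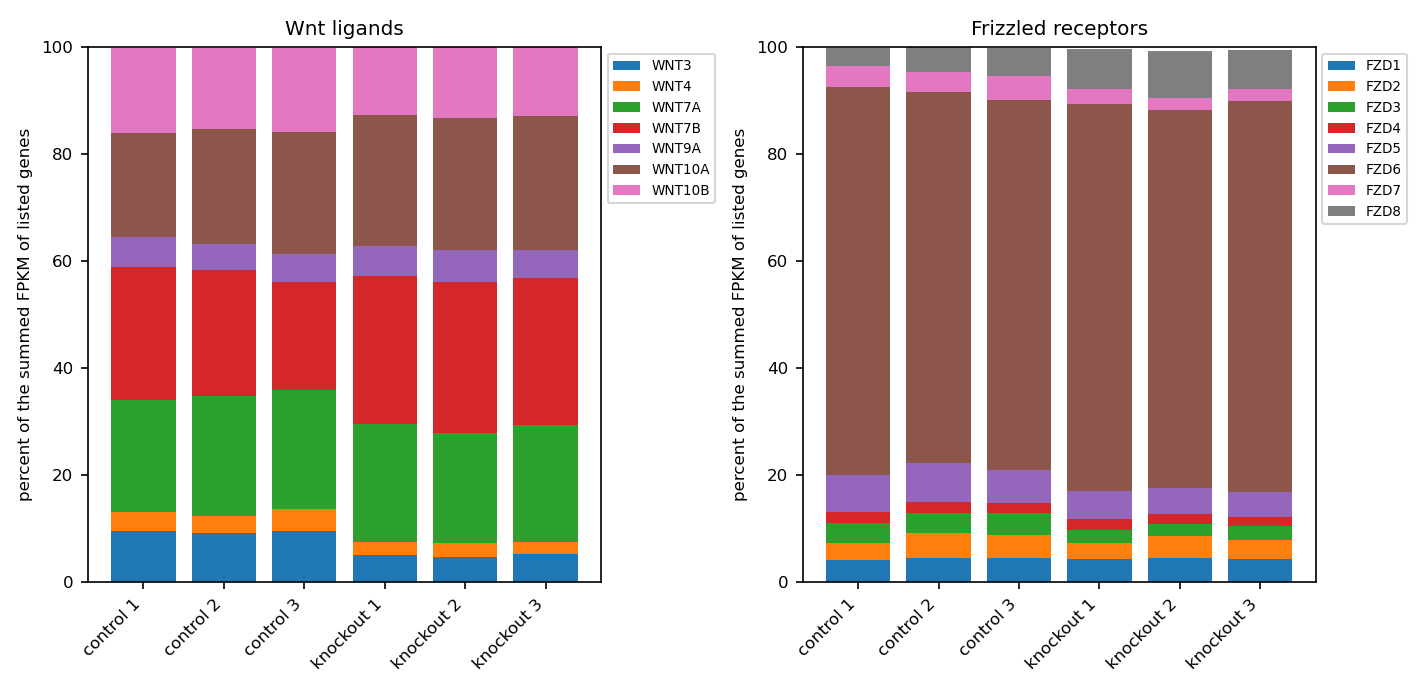
Shares of the summed FPKM of the 10 ligands (left) and the 9 Frizzled genes (right) in each library, in percent; genes under 1% in every library are not drawn. FZD6 takes 69.1% to 73.0% of the Frizzled sum in all 6 libraries, while WNT3 and FZD7 are smaller and FZD8 larger in the 3 knockout libraries.

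Coreceptors and the genes that set receptor turnover did not pass. LRP5 and LRP6, the coreceptors, measured 6.69 ± 0.262 against 6.01 ± 0.946 and 2.74 ± 0.238 against 2.99 ± 0.309 FPKM (log2 fold changes 0.14 and -0.09). The ubiquitin ligases RNF43 and ZNRF3 remove Frizzled from the membrane, and R-spondin bound to an LGR receptor holds them back. RNF43 measured 3.64, 3.65 and 3.53 FPKM in the knockout against 4.42, 4.53 and 2.88 in the control, the low value being control 3. Its log2 value of -0.08 (SE 0.127, limma adjusted p = 0.663) became -0.25 without that library (adjusted p = 0.00976). RNF43 also lies on chromosome 17, among 104 tested genes with a median of -0.37, and shares 4326 of 7505 exonic bases with AC004687.2, a protein-coding gene on the same strand. ZNRF3 stood at 3.25 ± 0.119 against 3.09 ± 0.259 FPKM. LGR4 was the expressed R-spondin receptor, at 11.1 ± 0.857 against 11.9 ± 1.13 FPKM, while LGR6 stayed at or below 0.062 FPKM and LGR5 at or below 0.008.

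Dishevelled and destruction complex genes did not pass. DVL1 measured 24.3 ± 2.09 FPKM in knockout cells and 22.1 ± 1.31 in control cells, DVL2 13.3 ± 0.312 and 12.7 ± 1.10, and DVL3 18.5 ± 0.699 and 15.7 ± 2.24. The groups did not overlap for DVL3 (log2 fold change 0.23, limma adjusted p = 0.125), whose lowest value, 13.4 FPKM, was control 3. Without control 2 DVL3 passed (0.32, adjusted p = 0.0422), without control 3 its value was 0.12, and after the GC and length correction it was 0.06. APC and AXIN1, the scaffolds, and GSK3B, the kinase, had log2 values of -0.05, 0.04 and 0.07. AXIN1, with 63.8% GC, turned from 0.04 to -0.21 once corrected for GC and length (adjusted p = 0.00761, or 0.0231 if the block is also fitted). CTNNB1, which encodes beta-catenin and is no member, measured 49.9 ± 1.16 FPKM against 50.4 ± 0.749 (log2 fold change -0.01, SE 0.0651, limma adjusted p = 0.901). These are mRNA levels and do not measure the protein.

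TCF7L2 was the most abundant of the TCF/LEF factors, and it fell. Its values were 3.03, 3.02 and 3.17 FPKM in the knockout against 4.29, 4.27 and 3.97 in the control, without overlap. The fall to 73.7% of control (log2 fold change -0.34, SE 0.0681, limma adjusted p = 0.00812) passed under every alternative run. TCF7L2 shares 300 of its 6736 exonic bases with an antisense gene. LEF1, a factor of hair follicle matrix cells, measured 1.6 ± 0.205 against 1.42 ± 0.0581 FPKM and did not pass (0.10, limma adjusted p = 0.331). TCF7L1, mainly a repressor of Wnt targets, was low, at 0.214, 0.227 and 0.170 FPKM against 0.108, 0.145 and 0.138, with no overlap between the groups (limma without the filter, adjusted p = 0.0461). TCF7 did not exceed 0.208 FPKM. By shares of the summed TCF/LEF FPKM, TCF7L2 held 71.9% in the control and 61.2% in the knockout, and LEF1 24.5% and 31.8%.

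DKK1, a secreted inhibitor that binds LRP5 and LRP6 and is itself a target of beta-catenin, was the most abundant member. Its level was 57.6, 61.3 and 63.8 FPKM in the knockout libraries and 81.5, 78.1 and 91.1 in the controls. All 3 knockout libraries lay below all 3 controls. DKK1 fell to 72.9% of control (log2 fold change -0.45, SE 0.0821, limma adjusted p = 0.00566). The value after the GC and length correction was -0.25 (adjusted p = 0.0127), and the 38 tested genes within 10 Mb on chromosome 10 had a median of -0.04. An antisense gene shares 212 of its 2206 exonic bases. The DKK1 promoter is shown because it holds the core of the TCF/LEF recognition sequence, CTTTGA or its reverse complement TCAAAG, at 2 places. Of all 35116 gene starts, 11.2% hold this core in the 250 bases upstream, and of the 29 members with a sequence, DKK1 and PORCN do. The share counts every start, whereas a member with several starts counts once. For this core too, the called members WNT7B, FZD3, FZD7 and DKK3 could not be searched. The stretch runs from 179 to 60 bases before the start (RefSeq, GRCh38.p14, plus strand, chr10:52314102-52314221), with the matches in capitals, and lies in an exon of the antisense gene.
DKK1: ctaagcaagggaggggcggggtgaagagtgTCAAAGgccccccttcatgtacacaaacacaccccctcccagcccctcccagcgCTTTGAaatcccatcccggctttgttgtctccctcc
No chromatin or binding data accompany these libraries, so the matches were not related to occupancy.

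DKK3, a relative of DKK1 with no settled role in Wnt signalling, rose slightly. The values were 7.17, 7.39 and 7.32 FPKM in knockout cells and 6.26, 5.97 and 6.09 in control cells, a tight separation of 1.19-fold (log2 fold change 0.22, SE 0.0674, limma adjusted p = 0.0425). The call was lost with the replicate block (adjusted p = 0.0603), after TPM scaling (0.148) and without any 1 library other than control 3 (0.102 to 0.166).

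AXIN2, NKD1 and LGR5 were below 0.1 FPKM in every library. AXIN2, a scaffold induced by beta-catenin, measured 0.050, 0.025 and 0.037 FPKM in the knockout against 0.043, 0.030 and 0.017 in the control, and the groups overlapped. It shares 1316 of 5226 exonic bases with a gene on the same strand. NKD1, an inhibitor of Dishevelled, did not exceed 0.035 FPKM in any library, and LGR5 was listed at 0 in 5 of 6. Other genes known as Wnt targets were expressed, among them DKK1 at the level given above and RNF43 and ZNRF3, which did not pass.

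**Figure D3:**
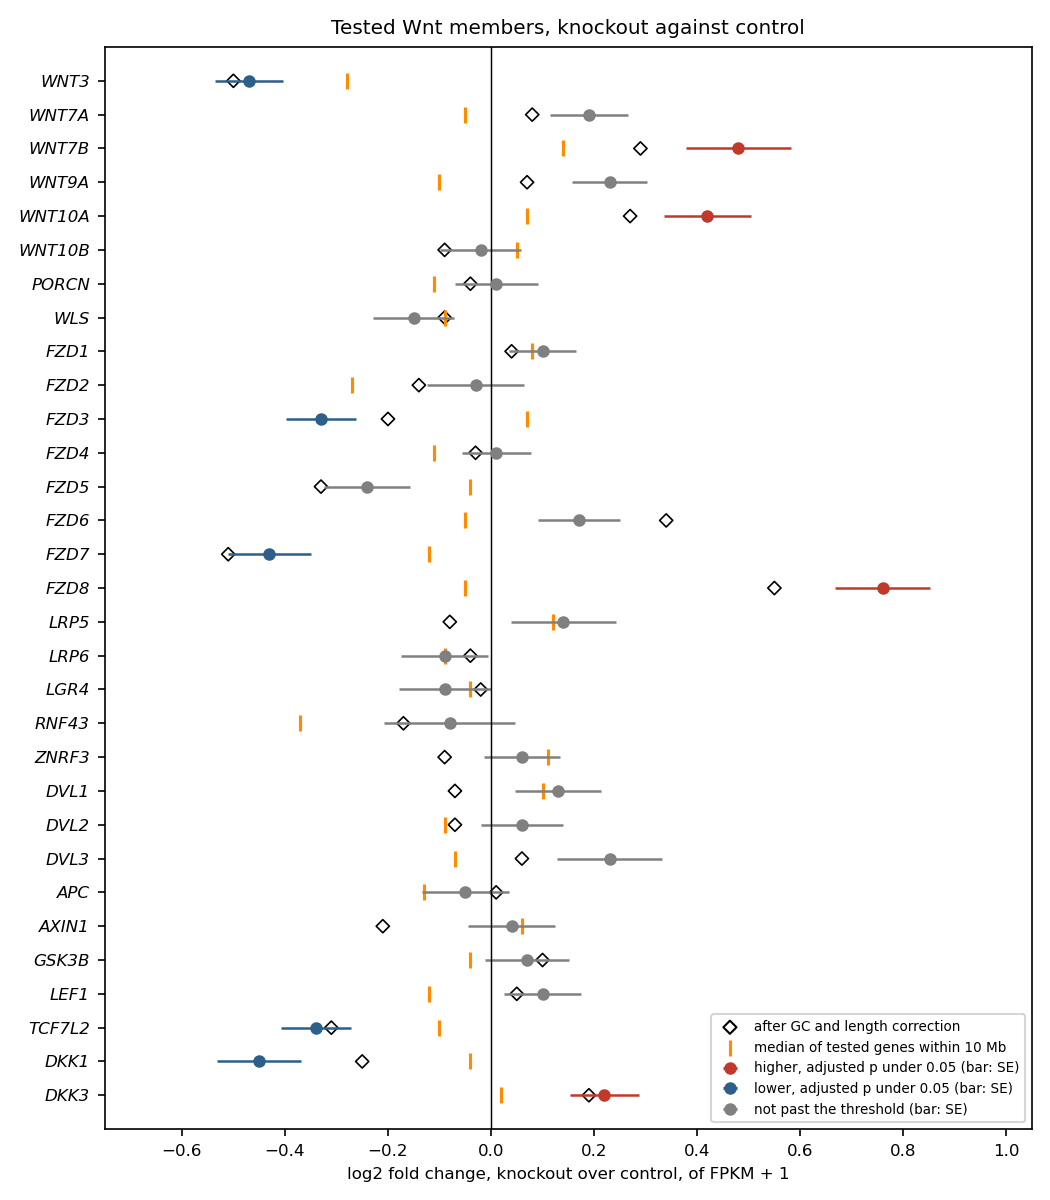
Log2 fold changes of the 31 expressed members (points, bars are SE, 3 libraries in each group), with the value after GC and length correction (open diamonds) and the median of tested genes within 10 Mb (orange ticks). FZD8 lies highest at 0.76 and WNT3 lowest at -0.47; among the uncalled members AXIN1, FZD5 and FZD6 pass only as diamonds here, at -0.21, -0.33 and 0.34.

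All 9 called members had separate groups, beside 45.6% of all tested genes, but they were called from these same values. Separate groups fix the exact two-sided permutation test over the 6 libraries at p = 0.1, the smallest that 3 against 3 allows. Neither the separation nor this test therefore adds support to the calls. WNT3, FZD7, FZD8, TCF7L2 and DKK1 stayed past the threshold under all 12 alternatives. WNT7B and WNT10A lost the call once each, both without knockout 2, and FZD3 once. In bulk RNA, fewer cells with a transcript and less of it per cell cannot be told apart.

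A second list held 93 further genes of the pathway, of which 47 were expressed. Of these 10 rose (21.3%) and 4 fell (8.51%), 33 did not pass, and the median log2 fold change was 0.09. Set beside the 9.58% and 13.3% of all tested genes, more were higher and fewer lower. This list was chosen with earlier results of these data known. Groups did not overlap for 46.8% of the 47, near the 45.6% of all tested genes. Correcting for GC and length gave 12 higher and 7 lower of 47, beside 1658 higher and 1725 lower of all 11177 genes in that fit. The share of lower genes was then near that of all genes. Leaving out 1 library moved the higher count to between 2 and 15 and the lower count to between 2 and 7, while the counts over all genes ranged from 391 to 2103 higher and from 639 to 2418 lower. The highest counts came without control 3, which had the lowest value of the 6 libraries for 8 of the 10 genes that rose.

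Both Kremen receptors, which take up LRP6 together with DKK1, rose. KREMEN1 measured 10.7, 10.7 and 10.3 FPKM in knockout cells and 7.98, 8.99 and 5.74 in control cells (log2 fold change 0.45, limma adjusted p = 0.0362). KREMEN2 measured 11.2, 13.5 and 12.3 against 7.63, 7.15 and 10.4 (0.52, limma adjusted p = 0.021). The KREMEN1 call was lost without knockout 1, knockout 2, knockout 3 or control 1 (adjusted p 0.0564 to 0.144), without the filter and as TPM, and its value was 0.29 without control 3 and 0.28 after the GC and length correction. KREMEN2 lost its call without knockout 2, knockout 3 or control 1 (0.0631 to 0.118) and without the filter. After the GC and length correction the KREMEN2 value was 0.36 (adjusted p = 0.0079). The gene shares 360 of 2614 exonic bases with PKMYT1 on the opposite strand. Of the secreted inhibitors in this list, SFRP2, SFRP4, WIF1 and DKK4 were listed at 0 in all libraries, as were the R-spondins RSPO1 and RSPO4. SOST, which binds LRP5 and LRP6, was low, at 0.037, 0.074 and 0.082 FPKM in knockout cells and 0.2, 0.117 and 0.15 in control cells, without overlap (limma without the filter, adjusted p = 0.0438); it lies on chromosome 17, where 101 of 202 tested genes within 10 Mb were lower. Other low genes of this list also passed without the filter, among them TLE2 and BMP4. TLE2 stood at 1.13 ± 0.0809 FPKM in the knockout against 0.538 ± 0.126 in the control (limma without the filter, adjusted p = 0.00687). BMP4 stood at 0.218 ± 0.031 against 0.466 ± 0.067 FPKM (limma without the filter, adjusted p = 0.00706). SOST, TLE2 and BMP4 were named after their values were seen.

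ROR1, a receptor for beta-catenin-independent Wnt signals, fell to 58.1% of control, from 2.47, 2.09 and 1.98 FPKM to 1.28, 1.23 and 1.29 (log2 fold change -0.49, limma adjusted p = 0.00244). PTK7, a related pseudokinase, had 0.32 (limma adjusted p = 0.0421) and CELSR2 0.58 (0.046); both were named after their values were seen. PTK7 lost its call without the filter (0.074), as TPM (0.0915), without any 1 knockout library or control 1 (0.0856 to 0.155), and with the block added to the GC and length correction (0.0773), where its value was 0.14. CELSR2 lost its call with a pseudocount of 0.1 (0.0522), without the filter (0.112), after the GC and length correction (0.32, adjusted p = 0.0643) and without any 1 knockout library or control 1 (0.0624 to 0.2), and stood at 0.34 without control 3. Of the 7 expressed polarity genes 3 rose, beside 9.58% of all tested genes, and a set of 7 is too small to compare shares. The 3 were CELSR1, an atypical cadherin (1.55-fold, log2 fold change 0.54), CELSR2 and DAAM1, a formin that acts on actin (1.25-fold, 0.31). The longest transcripts of CELSR1 and CELSR2 have 61.4% and 60.3% GC, and that of DAAM1 has 39.3%. CELSR1 lost its call without knockout 2 (limma adjusted p = 0.082), and stood at 0.27 after the GC and length correction and at 0.40 without control 3. DAAM1 lost its call as TPM (0.0772) and without knockout 1, knockout 3 or control 2 (0.0535 to 0.104). After the GC and length correction its value was 0.41.

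Nuclear cofactors and targets also went both ways. CTNNBIP1, which blocks binding of beta-catenin to TCF factors, measured 3.63, 3.26 and 3.84 FPKM in the knockout against 4.67, 5.54 and 7.14 in the control. It fell to 61.9% of control (log2 fold change -0.55, limma adjusted p = 0.0141), a call lost without knockout 2 (0.0912). Without control 3, the highest control, its value was -0.41. TLE4, a Groucho corepressor, rose 1.28-fold (0.30, limma adjusted p = 0.0343), a call lost without any 1 knockout library or control 1 (0.0585 to 0.121), without the filter and as TPM. CSNK1D, a casein kinase of the pathway, fell to 75.9% of control (-0.38, limma adjusted p = 0.00718), and the tested genes within 10 Mb of it on chromosome 17 had the same median, -0.38. It stood at -0.57 after the GC and length correction, and its call was lost without knockout 3 (0.0502).

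Among 16 genes listed as targets, 9 were expressed. JAG1, a Notch ligand, rose from 31.0, 31.5 and 27.1 to 44.1, 41.1 and 43.7 FPKM (log2 fold change 0.51, limma adjusted p = 0.00256) and passed under every alternative run. EPHB2 and EPHB3, ephrin receptors of epithelial positioning, rose 1.41-fold and 1.37-fold, but EPHB2 was at 0.20 in place of 0.40 after the GC and length correction and EPHB3 no longer passed (0.07, limma adjusted p = 0.585). EPHB2 missed the threshold without knockout 2 or knockout 3 (0.0651 and 0.0523), and its value was 0.31 without control 3. EPHB3 missed it without any 1 knockout library or control 2 (0.0729 to 0.123) and as TPM (0.0599). MYC fell to 84.7% of control (log2 fold change -0.24, limma adjusted p = 0.034), a call lost without any 1 library other than control 3 (0.0733 to 0.165). Within 10 Mb of MYC on chromosome 8, 24 of 39 tested genes were lower and 1 higher, with a median of -0.35, and 69.2% of them had lower values than MYC. SP5, a factor induced directly by beta-catenin, measured 1.55, 2.05 and 2.13 FPKM against 1.03, 0.787 and 1.73, so the groups overlapped (0.43, limma adjusted p = 0.063). CCND1, encoding cyclin D1, stood at 105.8 ± 1.62 against 101.8 ± 13.7 FPKM (0.06, limma adjusted p = 0.675). SP5 and CCND1 were named after their values were seen.

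**Figure D4:**
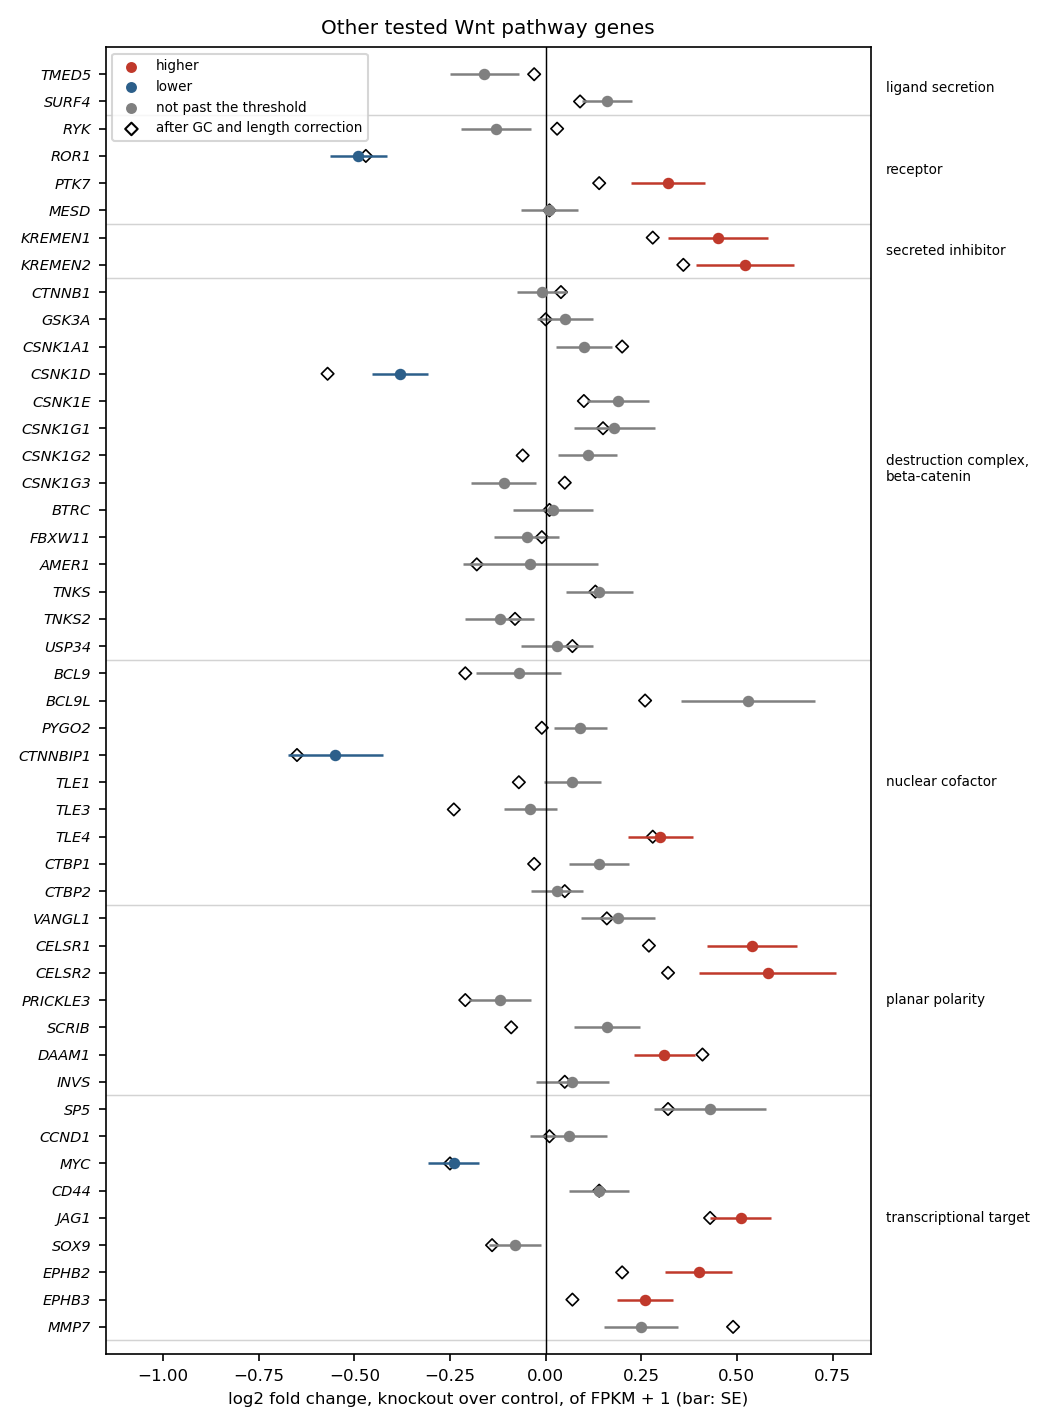
Log2 fold changes of the 47 expressed genes of the second list by role (points, bars are SE, 3 libraries in each group), with the value after GC and length correction as open diamonds. Of 47 points 10 are past the threshold on the higher side and 4 on the lower side, and CTNNB1 lies at -0.01.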

How the data were processed

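Per the submitters' processing notes, the tools were HISAT2 2.0.5, Trimmomatic 0.36, Cufflinks, featureCounts 1.6.3 and edgeR 3.6.3, with build GRCh38.p13; the sources used here do not give the annotation, read filters or strand setting. The authors deposited FPKM per Ensembl gene, with 3 decimals. FPKM is no count, so no count test was run. Steps in low values implied 45500000 to 52400000 reads per library, but only 60.9% to 66.3% of such values lay within 0.15 of whole reads, so reads were not recovered and no counting intervals are given. Identifiers were matched to symbols through a gene name table (19991) or GENCODE 29 on GRCh38 (23); coordinates, GC and length of the longest transcript from GENCODE 29; promoters from RefSeq (GRCh38.p14).

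Genes with a mean of at least 1 FPKM were tested with limma 3.58.1 (R 4.3.3) on log2(FPKM + 1), which understates changes of low genes, with genotype as the sole term, a variance trend and Benjamini-Hochberg adjustment at 0.05. The code was tested on simulated data. Members and lists were chosen with earlier results of these data known. Named genes are all members, STUB1, CTNNB1 and, from the second list, the 12 called genes with the smallest p. Alternatives were a pseudocount of 0.1, no filter, TPM, the replicate block, per-library spline correction for GC and length without and with the block, and leaving out each library. Deviations of same-numbered libraries from their group means correlated at 0.375, 0.150 and 0.188. Differently numbered libraries were not compared, so these values do not show that the numbers pair the libraries. No label gives a shared batch, and the main fit was unpaired. Python 3.11.15, pandas 2.3.3 and matplotlib 3.10.9 made tables and plots.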

Additional observations from a re-analysis of the deposited data

How the results depend on the processing

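STUB1 and 7 of the 21 called genes that the naming rule gives (WNT3, FZD7, FZD8, TCF7L2, DKK1, ROR1 and JAG1) passed under all 12 alternatives, and none of the 21 reversed. Over all genes 2579 passed, 3051 with the replicate block, 2289 as TPM, and 1030 (without knockout 2) to 4521 (without control 3) when 1 library was left out; the cause was not tested. Members higher ranged from 1 to 5 and members lower from 5 to 8 over those omissions, and the replicate block gave 3 and 5, DKK3 being the single gene named by the rule whose call it changed. In the second list the higher count was 6 as TPM and 2 to 15 with 1 library left out, and the lower count was 7 without the filter, 7 after the GC and length correction, 7 with the replicate block added to it, and 2 to 7 with 1 library left out. Values that changed sign belonged to uncalled genes. As TPM, PORCN was at -0.03, FZD4 at -0.02 and AXIN1 at -0.005. After the GC and length correction, without and with the replicate block, PORCN was at -0.04, FZD4 at -0.03, LRP5 at -0.08, ZNRF3 at -0.09, DVL1 at -0.07, DVL2 at -0.07, APC at 0.01, AXIN1 at -0.21 and CTNNB1 at 0.04; the cause was not tested. Leaving out 1 library gave -0.07 to 0.03 for WNT10B, -0.03 to 0.07 for PORCN, -0.11 to 0.04 for FZD2, -0.03 to 0.04 for FZD4, -0.25 to 0.01 for RNF43, -0.11 to 0.01 for APC, -0.01 to 0.11 for AXIN1 and -0.03 to 0.005 for CTNNB1. Depth is known only as an estimate, so values under 0.1 FPKM carry no counting interval.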
